A study of Macaca mulatta with 8 samples.

Results

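The nuclear genes of oxidative phosphorylation were followed in blood CD4 T cells of rhesus macaques that had received regulatory T cells (Tregs). They were taken by symbol from the deposited gene table: every row whose symbol starts with NDUF, UQCR or ATP5, or with COX followed by a digit from 4 to 8, and the rows SDHA, SDHB, SDHC, SDHD and CYCS. The rule found 69 rows of 16429 genes, carrying 68 symbols, since ATP5F1 has 2 rows. By product there were 27 rows of complex I, 8 of its assembly factors (the NDUFAF names), 4 of complex II, 3 of complex III, 12 of complex IV and 13 of complex V. NDUFA4 was placed with complex IV, where its protein is now assigned. Another 2 rows, COX4NB and ATP5S, matched the letters of the rule but encode proteins that are not subunits. CYCS, which encodes cytochrome c, was not matched.

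Blood mononuclear cells were frozen, thawed, enriched for CD4 and sorted into 4 populations on day 3 and day 20, as the labels number them, and each of these 8 samples gave 1 droplet library with 10x 3' version 2 chemistry. CFSE-positive cells carry a dye that is kept and diluted at division and are taken here, from the title of the series, as the transferred Tregs. CD25high CD127low cells have the surface phenotype of the animals' own (endogenous) Tregs. The 2 CD127-positive sorts, one CD25-positive and one CD25-negative, hold mostly cells that the authors class as conventional (Tconv). They are called CD25-positive conventional and CD25-negative conventional below. Most CD25high CD127low cells are classed as Tconv too. On day 3 these were 2037 of 3347 cells, with 1301 classed as endoTreg, and on day 20 they were 1356 of 2343, with 938 endoTreg. Where a whole CD25high CD127low library is called endogenous or a Treg sort below, the words name the sort and not the class. The labels name no animal, no age, no dose and no treatment beside the transfer, and they do not say whether cells of several animals were pooled. With 1 library per population and day there is no replicate spread and no test: "called" means a ratio of at least 1.5-fold with at least 50 CPM (a gene's UMIs, the counted molecules, scaled to the library total in the usual way) in 1 of the compared libraries, and every interval is at 95% and covers counting error only. In such sums, a different makeup of the sorted cells and a different amount of RNA per cell cannot be told apart. A gene that reaches 50 CPM in only 1 of the compared libraries can be called only as higher in that library.

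Oxidative phosphorylation makes ATP in the inner mitochondrial membrane. Complexes I and II take electrons from NADH and succinate, complex III passes them to cytochrome c, complex IV hands them to oxygen, and complex V, the ATP synthase, uses the proton gradient that complexes I, III and IV build. A small set of core subunits is encoded by mitochondrial DNA, and all other subunits are encoded in the nucleus and imported. The members are the nuclear subunits whose symbols the rule matched, beside the assembly factors, COX4NB and ATP5S. Some nuclear subunits, such as CYC1 (cytochrome c1), lie outside the rule, so sums by complex cover the matched rows only. Tregs are known for relying more on mitochondrial respiration than recently activated conventional T cells, which lean on glycolysis.

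The libraries held 1149 to 4751 cells, with 2992787 to 12149559 UMIs in all and a median of 2131 to 3095 UMIs per cell. Genes of cytosolic ribosomal proteins took 29.3% of UMIs in CFSE-positive cells of day 3 and 36.1 to 39.4% in the other 7 libraries. The summed T cell markers stood at 1638 to 2915 CPM, led by CD3D, although CD4 itself was at 3.47 to 7.29 CPM. FOXP3, the factor that defines Tregs, had 259 CPM (day 3) and 127 CPM (day 20) among CFSE-positive cells. It had 76.0 and 67.8 CPM among CD25high CD127low cells, and 17.3 and 16.9 CPM among CD25-positive conventional cells. Among CD25-negative conventional cells it had at most 0.530 CPM. The Treg markers IL2RA, IKZF2 and TNFRSF18 were also higher among CFSE-positive than CD25high CD127low cells on both days. CTLA4 was lower, at 37.5 and 24.4 against 49.4 and 47.7 CPM. Summed red cell markers (3 of 6 in the table, mostly HBB and HBA2) ranged from 126 to 1559 CPM and were highest in CD25high CD127low cells of day 3. HBB was at 147 to 1385 CPM in the libraries of day 3 and at most 0.668 CPM on day 20, where HBA2 led at 126 to 147 CPM. Monocyte markers (6 of 6, mostly CST3) ranged from 12.7 to 145 CPM and B cell markers (5 of 5) from 17.1 to 106 CPM. The last 2 lists were highest in CFSE-positive cells of day 3, NK cell markers (5 of 5) were highest in CD25-negative conventional cells at 444 and 421 CPM, and the part of these markers in the results was not tested. Pairs of libraries shared 2 to 31 cell barcodes.

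The members together took 1.59% of all UMIs (1.58 to 1.59) in CFSE-positive cells of day 3, that is 192793 of 12149559 UMIs. The other libraries of day 3 gave 1.23% in CD25high CD127low, 1.15% in CD25-positive conventional and 1.12% in CD25-negative conventional cells. On day 20 the same 4 sorts gave 1.26%, 1.21%, 1.199% and 1.17%. One library was therefore high and the other 7 lay within a narrow range. That library is also the one with the low ribosomal share: of the UMIs that come from neither ribosomal protein, mitochondrially encoded nor hemoglobin genes, called the other base below, the members took 2.37% there and 1.95 to 2.11% elsewhere.

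**Figure D1:**
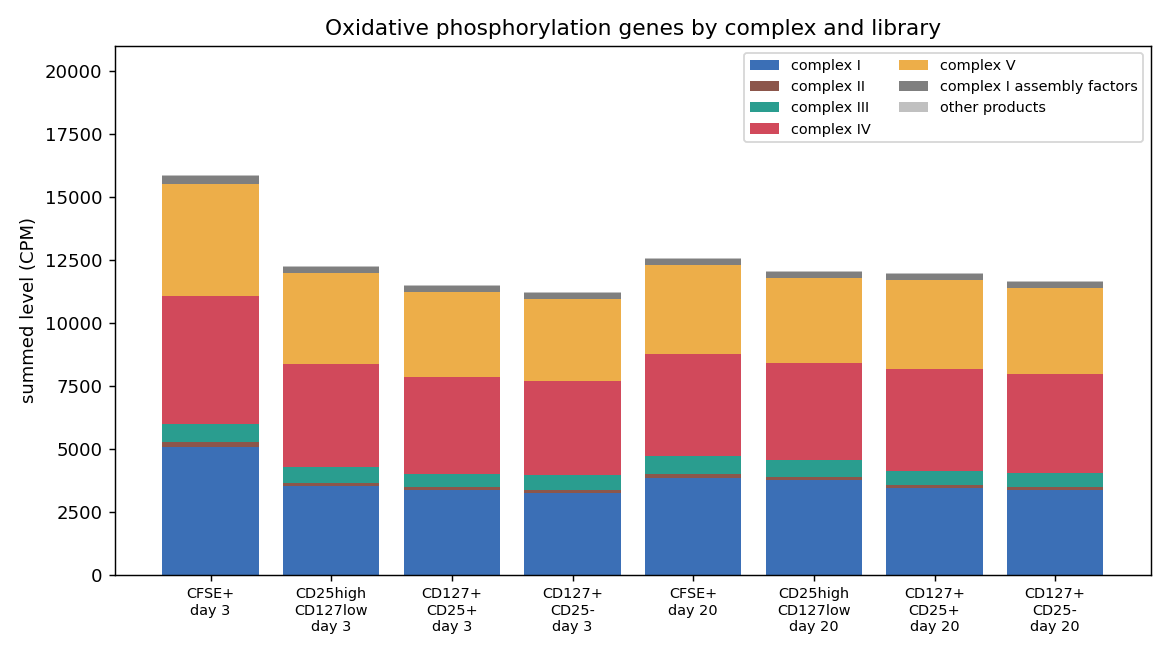
Summed level of the members in CPM (vertical axis, from 0) in each of the 8 libraries, stacked by complex; each bar is 1 library, with no replicates. The CFSE-positive library of day 3 reaches 1.59% of UMIs and the other 7 lie between 1.12 and 1.26%.

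Complexes I, IV and V supplied most of these transcripts. In CFSE-positive cells of day 3 complex I summed to 5079 CPM, complex IV to 5105 CPM, complex V to 4449 CPM, complex III to 712 CPM and complex II to 178 CPM. Each UMI marks 1 molecule at its 3' end, so levels of different genes are compared here without division by length. Of the 69 rows, 47 reached 50 CPM in at least 1 library and 54 reached 20 CPM. All 3 rows of complex III passed 50 CPM, but only 2 of 4 rows of complex II, 8 of 12 of complex IV and 2 of 8 assembly factors did.

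In complex I the most abundant members were NDUFB2 and NDUFA11, accessory subunits of the membrane arm, with a mean of 359 and 340 CPM over the 8 libraries. NDUFB5, another membrane arm subunit, was lowest at 3.89 CPM. Complex IV was led by COX4I1, its largest nuclear subunit, at 1502 CPM, and by COX6C at 749.7 CPM, and complex V by ATP5G2, a gene for the membrane ring subunit c, at 1030 CPM and ATP5O, which joins the stator to the catalytic head, at 795 CPM. In complex III, UQCRH, the hinge protein that assists the transfer to cytochrome c, had 357 CPM, UQCRB, which helps bind the quinone, 162 CPM and UQCRC1, a core protein, 97.9 CPM. SDHB, the iron-sulphur subunit of complex II, stood at 76.4 CPM and SDHA, its flavoprotein, at 52.4 CPM. Among the assembly factors NDUFAF8 and NDUFAF3 led at 72.8 and 65.8 CPM, and NDUFAF7 was lowest at 7.63 CPM.

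Some rows were nearly empty. SDHC and SDHD, the membrane anchors of complex II, had 15 and 7 UMIs in all 8 libraries together, COX6B2 had 1 and COX7B2 had 16. ATP5B, which encodes the catalytic beta subunit, was at 3.81 to 6.17 CPM, ATP5L at 1.11 to 3.95 CPM, and the 2 rows of ATP5F1 at no more than 7.45 CPM. COX7C was at 7.91 to 16.3 CPM, while a row without a symbol that the reference table names COX7C held 624 to 1003 CPM. The low rows are therefore a statement about these annotated rows and not about the proteins. The reference table also gives another name to the rows of COX8A (OTUB1) and NDUFAB1 (PALB2), and which gene their UMIs come from was not tested.

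The CFSE-positive sort was compared with the CD25high CD127low sort, which holds the endogenous Tregs together with a majority of cells classed as Tconv. On day 3 the members' summed share was 1.29-fold higher in CFSE-positive than in CD25high CD127low cells, a log2 ratio of 0.37 (0.36 to 0.38). Complex I differed most in size among the large complexes, with 5079 against 3533 CPM and a log2 ratio of 0.52 (0.51 to 0.54), followed by complex IV at 0.31 (0.30 to 0.33) and complex V at 0.30 (0.28 to 0.32). Of 47 members tested, 8 were called higher and 0 lower, where 28.5% of all 2199 genes tested were called higher and 6% lower. The members' share of calls was thus below the background, and their median log2 ratio of 0.43 lay beside the 0.41 of all genes. On the other base the summed log2 ratio was 0.17 (0.16 to 0.18), and with TMM factors, edgeR's scaling on a trimmed mean of gene ratios, 0.04. TMM moved the median of all genes to 0.09 and left 8.49% of them called higher and 13.1% lower, with 3 members higher and 1 lower.

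The members called higher on day 3 were from complexes I, IV and V and the assembly factors. NDUFB1, a membrane arm subunit, had 441 CPM in the transferred library against 205 CPM in the endogenous one, a log2 ratio of 1.07. ATP5I, subunit e of the ATP synthase, stood at 491 against 238 CPM, at 1.02. Both were also low in the CD25-positive conventional library of day 20, at 223 and 254 CPM. COX7A1 and COX7A2, alternative forms of a small complex IV subunit, had log2 ratios of 0.93 and 0.86, with COX7A1 at 90.8 against 43.0 CPM and COX7A2 at 499 against 269 CPM. NDUFV3, an accessory subunit near the NADH site, NDUFB2, NDUFA12 and NDUFAF3, a factor for the matrix arm, lay between 0.59 and 0.68.

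For NDUFB1, ATP5I, COX7A1 and NDUFS5 the lowest pair of libraries was CD25high CD127low of day 3 with CD25-positive conventional of day 20. This pair was picked after the levels had been seen, as 1 of 28 possible pairs, and 71 of 2348 genes at 50 CPM or more (3.02%) had it. Other pairs were lowest for up to 542 genes and up to 11 members. Without these 4 members the day 3 log2 ratio of CFSE-positive over CD25high CD127low cells was 0.33, and 5 members were called higher in place of 8. Both drops were fixed by the choice and test nothing. The members were picked for being low in the CD25high CD127low library, and NDUFB1, ATP5I and COX7A1 are among the 8.

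On day 20 the same comparison gave a log2 ratio of 0.06 (0.04 to 0.08), with 1.26 against 1.21%. Of 46 members tested 0 were called in either direction, beside 3.16% of all genes higher and 4.99% lower. The median member was at 0.06 and the median of all genes at 0.05. The sign of this small value turned with other settings: it was -0.01 with TMM factors and -0.04 between the authors' transTreg and endoTreg classes, which on day 3 gave 0.25.

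**Figure D2:**
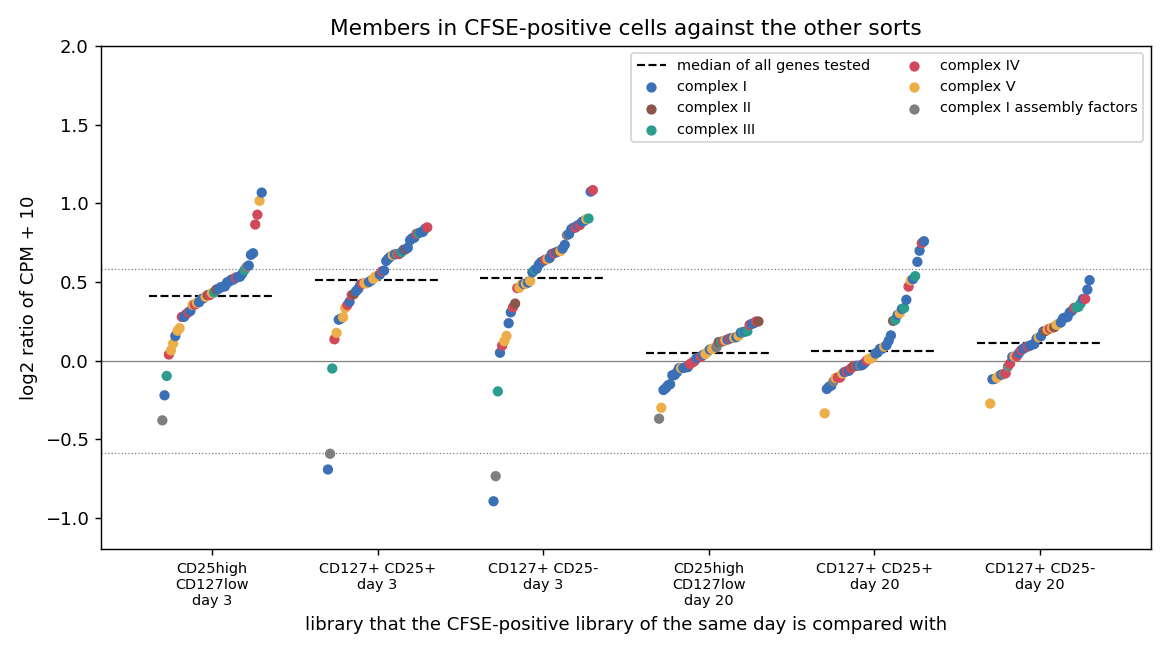
Log2 ratio of CPM + 10 (vertical axis) of each member in CFSE-positive cells against each other sort of the same day (horizontal axis, points ordered by value and coloured by complex); dashed lines give the median of all genes tested, dotted lines the 1.5-fold limit. On day 3 the members lie around the dashed lines at 0.41 to 0.52, and on day 20 they lie around 0.05 to 0.11.

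Against the conventional cells the difference on day 3 was larger. The log2 ratio of CFSE-positive over CD25-negative conventional cells was 0.50 (0.49 to 0.51) and 0.28 on the other base. It covered 26 of 47 members called higher and 2 lower, with 43.7% of all genes higher and 11.4% lower, and medians of 0.63 for the members and 0.52 for all genes. By complex, 15 of 23 members of complex I, 1 of 2 of complex II, 1 of 3 of complex III, 5 of 8 of complex IV and 3 of 9 of complex V were called higher. COX7A2 led at 1.08 with 499 against 230 CPM, and NDUFA6, an accessory subunit of the matrix arm, followed at 1.07 with 292 against 134 CPM. With TMM factors COX7A2 and NDUFA6 were the 2 members called higher and NDUFA1 and NDUFAF8 the 2 called lower, beside 17.4% of genes higher and 18.2% lower. On day 20 the summed log2 ratio was 0.11 (0.09 to 0.13) and 0.04 on the other base, and the sign turned with TMM (-0.04) and median-of-ratios factors (-0.006). On that day 0 of 46 members were called in either direction, beside 6.81% of genes higher and 4.4% lower.

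Against CD25-positive conventional cells, 20 of 47 members were called higher and 2 lower on day 3 (42.5% and 8.91% of all genes), and 4 of 46 were called higher and 0 lower on day 20 (12% and 4.92%). Of all comparisons of 2 sorts, this was the one in which any member was called on both days, where 4.62% of all genes were called higher on both. COX7A2 was called on both, with 499 against 281 CPM on day 3, then 330 against 192 CPM on day 20, and log2 ratios of 0.81 and 0.75. Its lowest value of all 8 libraries was in the CD25-positive conventional cells of day 20.

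CD25high CD127low and conventional cells were closer to each other. On day 3 the summed log2 ratio of CD25high CD127low cells was 0.13 over CD25-negative conventional and 0.09 over CD25-positive conventional cells, with 0 of 44 members called higher in either. The background was 4.07% and 1.37% of genes called higher. NDUFA1 was the single member called lower, over CD25-negative conventional cells, at -0.67 (7.63% of all genes were called lower there, and 2.52% against CD25-positive conventional cells, where 0 members were). On day 20 these log2 ratios were 0.05 and 0.01, and on the other base the sign turned, to -0.02 (-0.03 to -0.005) and -0.05 (-0.06 to -0.04). Over CD25-negative conventional cells 0 of 46 members were called (6.03% of genes higher, 1.44% lower), and over CD25-positive conventional cells 3 of 45 members were called higher and 0 lower, among them NDUFS5 at 0.79 and NDUFA1 at 0.67, beside 14% and 0.847% of all genes. The 2 conventional sorts differed by 0.04 on each day with 0 members called of 43 and 44, where 1.12% of genes were higher and 2.94% lower on day 3, and 1.32% and 3.47% on day 20.

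Most members shared the library with their highest value, and a few did not. CFSE-positive cells of day 3 held the highest value for 42 of the 47 members at 50 CPM or more, against 67.2% of all 2348 such genes. The 5 exceptions were NDUFA1, NDUFA2 and NDUFS5 of complex I, UQCRH of complex III and the assembly factor NDUFAF8.

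NDUFA1, a small membrane subunit needed to build complex I, ran opposite to most members on day 3. It was lowest in CFSE-positive cells at 58.8 CPM (54.5 to 63.2) and stood at 70.2 CPM in CD25high CD127low, 101 CPM in CD25-positive conventional and 118 CPM in CD25-negative conventional cells. On day 20 the same sorts had 119, 133, 80.1 and 97.1 CPM, so the order of the sorts was not kept. NDUFAF8, a partner of the assembly factor NDUFAF5, was at 48.8 CPM in CFSE-positive cells of day 3 and 66.5 to 90.6 CPM in the other 7 libraries. Their log2 ratios over CD25-negative conventional cells of day 3 were -0.89 and -0.74, and both remained called lower with TMM factors. NDUFS4, an accessory subunit of the matrix arm, stayed under 50 CPM and had 13.3 CPM in CFSE-positive cells of day 3 against 23.7 to 37.1 CPM elsewhere.

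**Figure D3:**
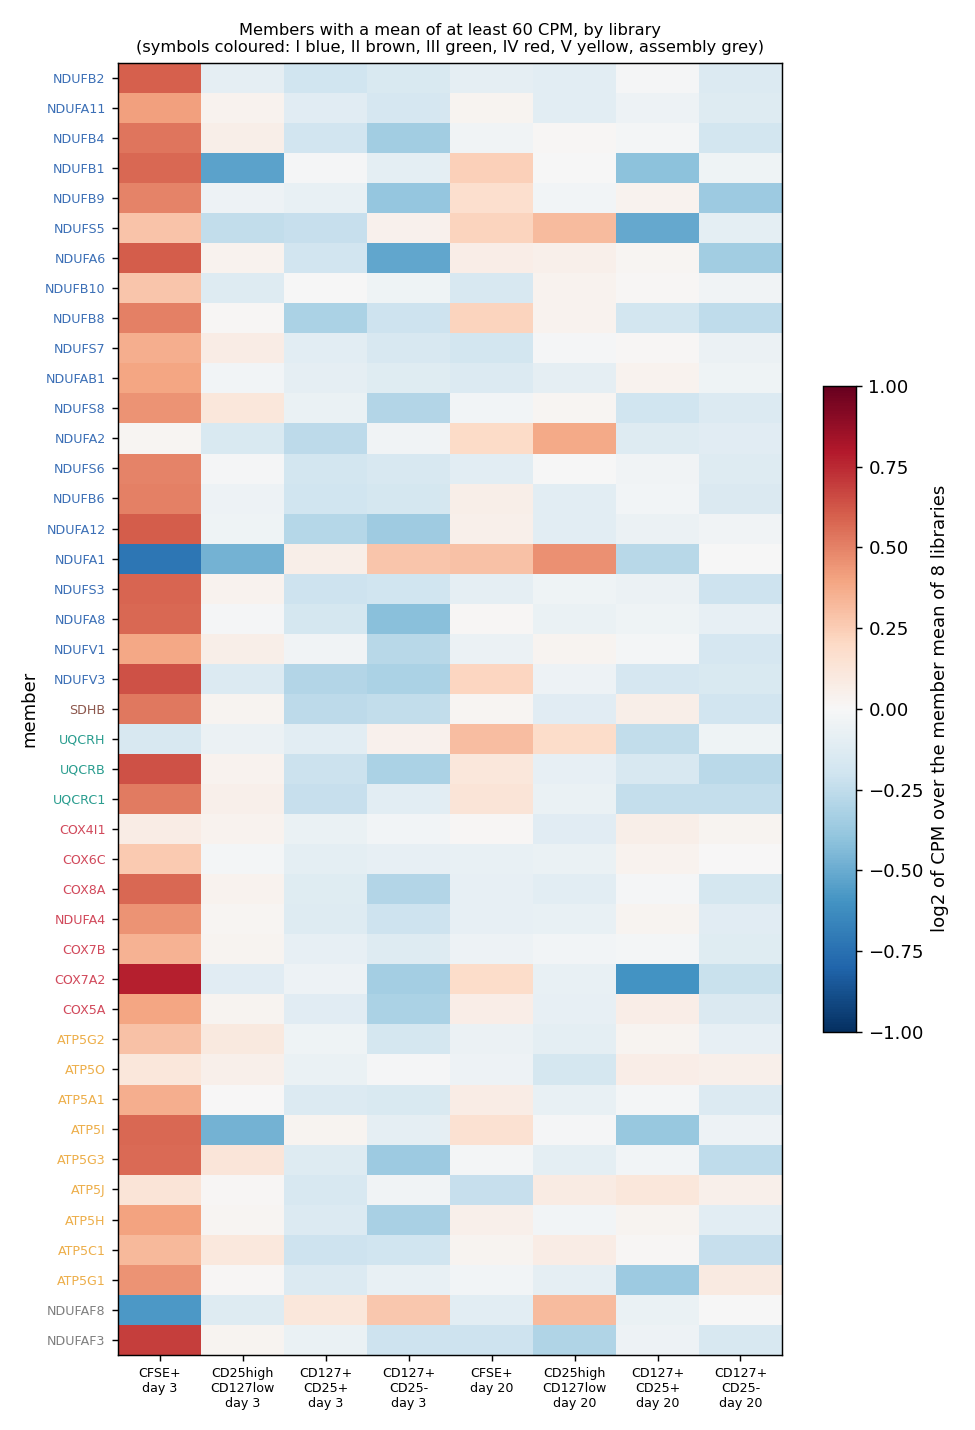
Log2 level of each of the 43 members with a mean of at least 60 CPM (rows, by complex) over its own mean of the 8 libraries (columns); red is above and blue below that mean, and each cell of the plot is 1 library. The left column, CFSE-positive cells of day 3, is red except for a few rows such as NDUFA1 and NDUFAF8, which are blue.

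Between the days the change was seen in the CFSE-positive library, whose makeup by the authors' finer names (described below) changed as well. On day 3, 1124 of its cells were named effector and 2687 in transition, and on day 20, 985 of 1149 were named naive. The median naive cell gave 1.38% of its UMIs to the members on day 3 and 1.25% on day 20. For all CFSE-positive cells these medians were 1.59 and 1.25%. The part of the changed makeup in the values below was not tested. From day 3 to day 20 the members' share in CFSE-positive cells went from 1.59 to 1.26%, a log2 ratio of -0.33 (-0.35 to -0.32), and their median of -0.40 lay beside -0.33 for all genes. The members called lower were 4 of 47, beside 18.5% of all genes: NDUFAF3 at -0.79, NDUFB2 at -0.67, COX8A, a small complex IV subunit, at -0.64 and NDUFS3, a core subunit, at -0.61. NDUFA1 was called higher at 0.91 (7.86% of all genes were). On the other base the summed value was -0.19. With TMM factors it was -0.18, 10.2% of genes were called higher and 9.83% lower, and UQCRH joined NDUFA1 as called higher while NDUFAF3 alone was called lower.

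In the other sorts the members' shares differed less between days. The log2 ratio of day 20 over day 3 was -0.02 in CD25high CD127low, 0.06 in CD25-positive conventional and 0.06 in CD25-negative conventional cells. NDUFA1 was the only member called in any of these 3 sorts, in CD25high CD127low cells at 0.84 (9.65% of all genes were called higher there and 0.809% lower). In CD25-positive conventional cells 0 of 43 members were called (0.0562% of genes higher, 4.89% lower), and in CD25-negative conventional cells 0 of 44 (0.0572% and 0.744%). NDUFA1 thus was higher on day 20 in both Treg sorts and lower, though under 1.5-fold, in both conventional sorts.

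The authors' classes and finer names divide the Tregs further. Their annotation was made from the same cells' expression by a method that no label gives, so differences between named groups are descriptions. Over all libraries of a day the class transTreg had 1.59% on day 3 and 1.26% on day 20, endoTreg 1.33% on both and Tconv 1.14 and 1.17%. Within the CD25high CD127low libraries, endoTreg over Tconv cells gave log2 ratios of 0.21 and 0.18 with 0 of 45 and 0 of 46 members called in either direction (6.45% and 5.67% of genes higher, 1.9% and 1.89% lower). In CFSE-positive cells of day 3 the members took 1.73% of UMIs (1.71 to 1.74) in the 1124 cells named effector, 1.54% in the 2687 named as in transition and 1.37% (1.33 to 1.41) in those named naive (naive-like in the plots). The 985 naive cells of day 20 had 1.25%. Endogenous effector Tregs had 1.63% on day 3 and 1.51% on day 20, above the 1.14 and 1.05% of endogenous naive Tregs. The small groups named Unk1 and Unk2 had 1.58 and 1.51%.

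**Figure D4:**
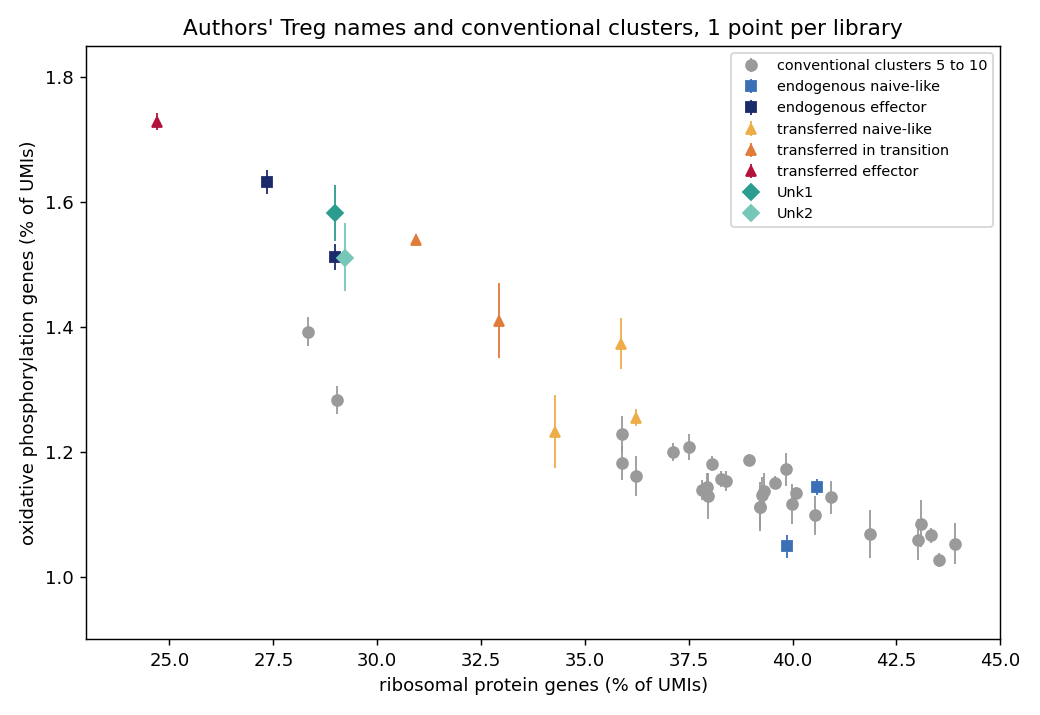
Members' share of UMIs (vertical axis, %, not from 0) against the ribosomal protein share (horizontal axis, %) for the authors' named Treg groups and conventional clusters, 1 point per library and group of at least 50 cells, with 95% counting intervals. Among the endogenous groups of a day, and among the transferred effector, transition and naive groups of day 3, a lower ribosomal share goes with a higher member share, while cluster 5 (29.0% and 28.3% ribosomal, 1.28% and 1.39% members) lies below Treg groups of like ribosomal share; effector Tregs are at 1.51 to 1.73% and endogenous naive Tregs at 1.05 to 1.14%.

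The effector and naive shares moved with the ribosomal share, which was 24.7% in transferred effector and 35.9% in transferred naive cells of day 3, and 27.4 and 40.6% in the endogenous ones. All points share the same denominator. On the other base the transferred effector, transition and naive groups of day 3 had 2.41, 2.36 and 2.27%, and the endogenous effector and naive groups had 2.38 and 2.06% on day 3 and 2.24 and 1.849% on day 20. The authors' cluster 5 against cluster 6 in CD25-negative conventional cells, taken as the conventional clusters with the highest and lowest share, differed by 0.32 on day 3 and 0.38 on day 20 in log2, and by -0.01 and 0.04 on the other base. In it 19 and 18 of 46 members were called higher and 0 lower, where 49.2% and 48.9% of genes were higher and 9.72% and 9.14% lower.

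Endogenous effector cells stood above naive ones on both days. The summed log2 ratio was 0.51 (0.49 to 0.54) on day 3 and 0.53 (0.50 to 0.56) on day 20. On day 3, 23 of 46 members were called higher and 0 lower, beside 43.7% and 5.43% of all genes, and on day 20 it was 23 of 45 and 0, beside 38.7% and 5.44%. The members' medians were 0.59 and 0.59, and those of all genes 0.51 and 0.44. Of the members called, 18 were called on both days, which is 78.3% of each day's 23. For all genes 653 were called on both days (33.2% of those tested on both), 69.3% of those of day 3 and 77.8% of those of day 20. With TMM factors 1 member on day 3 and 4 on day 20 were still called higher, and the summed log2 ratios were -0.01 and 0.13. The background then was 12.3% of genes higher and 18.0% lower on day 3, and 14.8% and 18.5% on day 20.

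Complex I gave most of these calls, with 14 of 22 members on day 3 and 18 of 22 on day 20. NDUFB9, a membrane arm subunit, had 382 against 176 CPM on day 3, then 345 against 156 CPM on day 20, with log2 ratios of 1.08 and 1.10. COX7B of complex IV was at 528 against 237 CPM and 446 against 223 CPM, at 1.12 and 0.97. NDUFA6 was at 324 against 155 CPM and 288 against 150.3 CPM, at 1.02 and 0.89. Abundant members could differ little: COX4I1 had log2 ratios of 0.09 and 0.15, and ATP5O of 0.07 and 0.05. NDUFA1, NDUFV3 and NDUFB6 were over 2-fold higher in effector cells of day 20, at 1.14, 1.05 and 1.02.

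**Figure D5:**
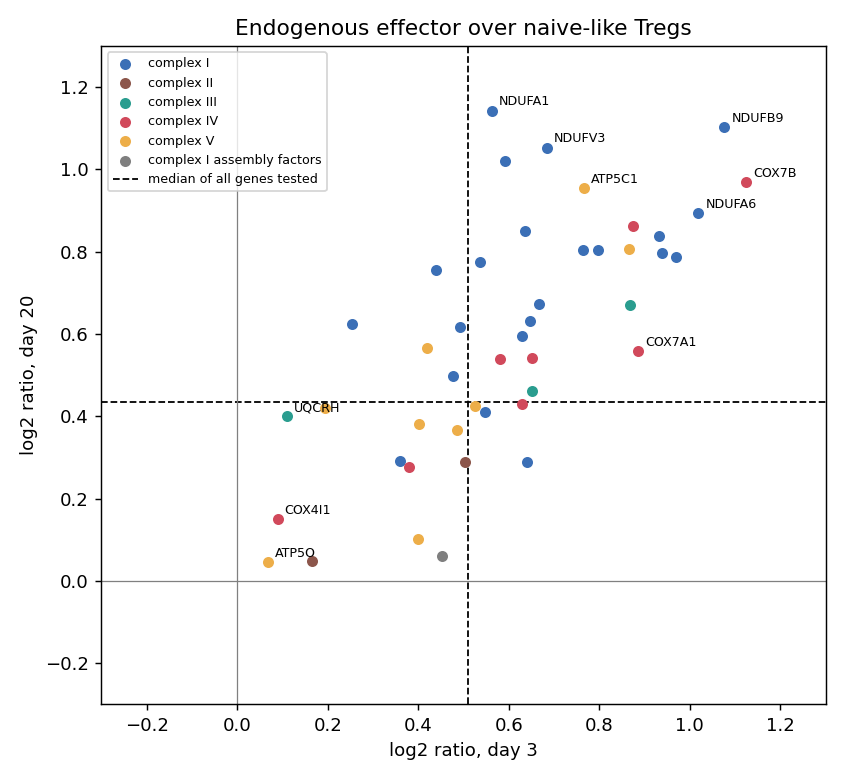
Log2 ratio of endogenous effector over naive Tregs for each member on day 3 (horizontal axis) and day 20 (vertical axis), coloured by complex, with dashed lines at the median of all genes tested (0.51 and 0.44). NDUFB9, COX7B and NDUFA6 lie at the upper right, and COX4I1 and ATP5O lie near 0.

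Within the transferred cells of day 3 the effector over naive log2 ratio was 0.33 (0.29 to 0.38). It was 0.09 on the other base and 0.06 with TMM factors, and the sign turned with median-of-ratios factors, to -0.05. Of 48 members 16 were called higher and 0 lower, beside 36.5% and 4.58% of all genes. NDUFAF3 led at 1.23, with 142 CPM (130 to 156) against 54.7 CPM (31.9 to 87.6), a wide interval since the naive group has only 310648 UMIs. SDHB followed at 0.90 and NDUFB10 at 0.88, and with TMM factors these 3 stayed called higher, COX4NB was called lower, and 16.6% of genes were higher and 10.4% lower. Transition over naive cells had NDUFAF3 at 0.68 and NDUFB10 at 0.66 called higher and 0 lower of 47 (12.1% and 1.67% of all genes), and effector over transition cells had 0 of 47 called in either direction (3.15% and 0.17%).

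Like groups of both origins were also set side by side. Transferred over endogenous effector cells of day 3 had a summed log2 ratio of 0.08 (0.06 to 0.10), with NDUFAF3 at 0.94, ATP5I at 0.85 and NDUFB1 at 0.68 called higher and 0 lower of 47 (15.8% and 8.45% of all genes). On the other base the summed value was 0.02 (0.001 to 0.04). The members' median of 0.08 lay below the 0.21 of all genes. Transferred over endogenous naive cells of day 20 had 0.26 (0.23 to 0.29), with NDUFB9 at 0.82, NDUFB6 at 0.75 and NDUFV3 at 0.63 called higher and 0 lower of 46 (13.7% and 5.72%). There the other base gave 0.17 (0.14 to 0.20), with medians of 0.28 for the members and 0.20 for all genes. ATP5I and NDUFB1 were at their lowest of 8 libraries in the library the endogenous effector cells of day 3 come from. Between days, naive transferred cells had NDUFA1 at 1.17, NDUFAF8 at 0.85 and UQCRH at 0.77 higher on day 20 (8.62% of all genes) and COX4NB at -0.69 lower (6.71%), of 48 tested. NDUFA1 was also higher on day 20 in endogenous effector cells, at 1.03, with NDUFS5 at 0.63 and 0 members lower (9.2% and 4.53% of genes). In endogenous naive cells NDUFB6 was lower at -0.64 and 0 members were higher (2.7% and 11.5%).

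Cell by cell the CFSE-positive library of day 3 was again the high one after each cell was thinned to 1000 UMIs. Thinning left out 17 shallower cells of that library and 6 in each conventional library of day 20. The thinned medians gave no order among the libraries of day 20, which all tied at 1.2%, or between the conventional libraries of day 3, both at 1.1%. The median cell gave 1.6% of its UMIs to the members in CFSE-positive cells of day 3 (quartiles 1.3 and 1.9%), and 1.1 to 1.2% in the other 7 libraries. Unthinned, the CFSE-positive median of day 3 was 1.59%. Of its cells 85.2% lay above the median CD25-negative conventional cell of that day, against 46.3% of the CD25-negative conventional cells themselves, since thinned values are coarse and many cells tie with the median. On day 20 these shares were 47.9 and 39.6%.

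Several subunits come from more than 1 gene. Subunit c of the ATP synthase is made from ATP5G1, ATP5G2 and ATP5G3, which differ in their import sequence. ATP5G2 supplied 69.7% of the family's UMIs (69.1 to 70.3) in CFSE-positive cells of day 3 and 72.5 to 74.99% in the other libraries. ATP5G3 supplied 21.8% there and 16.9 to 19.4% in the other libraries. By named group of day 3, the 2 genes supplied 67.4 and 23.6% in transferred effector and 67.2 and 24.7% in endogenous effector cells. In transferred naive cells they supplied 75.4 and 18.2%, and in endogenous naive cells 75.2 and 17.1%. The lower ATP5G2 share was thus not particular to transferred cells. In the COX7A family, COX7A2 supplied 80.3% in CFSE-positive and CD25high CD127low cells of day 3 and 74.7% in CD25-positive conventional cells of day 20. COX7A1, the form known from heart and muscle, supplied 12.8 to 16.2% over the 8 libraries, so its higher level in CFSE-positive cells of day 3 went with that of COX7A2. COX7B2, known from testis, was at most 0.231% of its pair with COX7B. COX4I2, COX6A1, COX6A2, COX6B1, COX8C, NDUFA4L2 and UQCRHL were not matched, so the other pairs could not be compared.

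The other genes of the pathway gave a mixed picture. The 13 mitochondrially encoded subunits took 3.38 to 3.83% of UMIs and did not share the nuclear members' order: in CFSE-positive over CD25high CD127low cells of day 3 their median log2 ratio was -0.02 over 12 tested, with 1 called higher (MT-ND6) and 0 lower. Of 5 complex IV assembly genes tested, 3 were called higher in that comparison, among them COX17, the copper carrier, at 150 against 72.8 CPM and PET100 at 315 against 160.1 CPM. ATPIF1, the inhibitor of the ATP synthase, was at 241 against 133 CPM. Of 9 TCA cycle and pyruvate dehydrogenase genes 2 were called higher (PDHB and OGDH) and of 6 glycolysis genes 2 (LDHA and HK1), where 28.5% of all genes were called higher. MT-ND6, OGDH and CMC1 of the complex IV assembly list reached 50 CPM only in the CFSE-positive library. They had 61.8 against 37.4, 53.2 against 32.0 and 69.5 against 38.9 CPM. Such genes could be called higher but not lower, so their calls add no support. On day 20 none of these lists had a called gene.

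In endogenous effector over naive cells of day 3, 4 of 4 genes of a complex V list and 3 of 5 complex IV assembly genes were called higher. So were 4 of 10 TCA cycle genes and 5 of 6 glycolysis genes, with SUCLG2, a succinate-CoA ligase subunit, called lower at -0.78. Of all genes 43.7% were called higher there. The complex V list is not one of assembly factors alone, since it holds ATPIF1 and C14orf2, which the reference table names ATP5MJ. LDHA, which makes lactate, was at 619 against 222 CPM, and OGDH, a TCA cycle dehydrogenase, at 58.3 against 19.7 CPM. OGDH passed the minimum level only in effector cells, so it could not have been called lower. On day 20 the counts were 3 of 3, 3 of 5, 4 of 9 and 5 of 6, with SUCLG2 again lower, at -0.64, and 38.7% of all genes called higher. The proliferation genes PCNA and STMN1 were called higher on both days, STMN1 with 544 against 134 CPM on day 3, and their part in the result was not tested. Of the mitochondrially encoded subunits 0 of 11 were called on day 3, and 2 of 11, COX1 and MT-ATP6, were called higher on day 20. Among the regulators of mitochondrial biogenesis, 0 of 10 reached 50 CPM on either day in the comparison of transferred with endogenous Tregs.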

How the data were processed

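The authors deposited whole UMI counts per gene and cell, and for each cell its library, day, cluster and names. Per the submitters' processing notes the reads went through Cell Ranger 2.1.1, and no genome build, annotation or cell filter is stated there. In all 25397 cells the deposited total was the sum of the cell's counts. Counts were summed per library or named group of at least 50 cells and divided by the total (CPM). Ratios are on the log2 scale after adding 10 CPM, so changes of low genes are understated, and summed ratios have a 95% delta-method interval. Levels have exact Poisson and shares exact Clopper-Pearson intervals. The calling step was tested on simulated data. All cells were kept and no doublet caller was run. In an alternative, 1194 doublet-like cells were left out. Scaling alternatives used edgeR 4.0.16 (TMM) and DESeq2 1.42.0 (median-of-ratios), without their tests. In all 30 comparisons were made: 12 of sorts, 4 of days and 14 of names, classes or clusters. The 14 were chosen after the shares of these groups had been looked at. Members, lists and the 1.5-fold rule were chosen with earlier results of these data known. Named are members called on both days between sorts, up to 10 called per direction elsewhere, the 2 highest and the lowest of each complex, isoform families, SDHA to SDHD, and up to 4 called genes per list. Other named members were chosen after their values were seen. The values of 1 member are not reported here singly. Promoter motifs and protein identities were not analysed here.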

Additional observations from a re-analysis of the deposited data

Results flagged for a closer look

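From day 3 to day 20 some members moved opposite ways in 2 sorts, with counting intervals on either side of no change. With 1 library per sort and day the difference was not tested, and a counting interval is narrow for abundant genes. Over the 6 pairs of sorts there were 78 such cases in 36 members. CFSE-positive with CD25-positive conventional cells had 27 of 43 members tested in both (62.8%, beside 51.4% of all genes), CFSE-positive with CD25-negative conventional cells 19 of 44 (43.2%, beside 39.5%), CD25high CD127low with CD25-positive conventional cells 14 of 43 (32.6%, beside 25.7%) and with CD25-negative conventional cells 11 of 43 (25.6%, beside 25.3%), the 2 Treg sorts 4 of 45 (8.89%, beside 11.02%), and the 2 conventional sorts 3 of 43 (6.98%, beside 2.34%). The summed share had a log2 ratio of -0.33 in CFSE-positive cells and of -0.02 to 0.06 in the other sorts. Single values are given only for the 4 members of the 2 Treg sorts. This choice was made after the values had been seen: the pair of Treg sorts was looked at first, then all 6 pairs with a fold minimum that kept fewer of these members, and that minimum was dropped. ATP5I had a log2 ratio of day 20 over day 3 of -0.41 in CFSE-positive and 0.45 in CD25high CD127low cells, NDUFB1 of -0.33 and 0.50, COX7A1 of -0.49 and 0.21, and NDUFB10 of -0.42 and 0.16. ATP5I and NDUFB1 were lowest of 8 libraries in CD25high CD127low cells of day 3, at 238 and 205 CPM.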

How the results depend on the processing

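No paired analysis was possible because each sort and day has 1 library, and for the same reason no replicate was left out. The planned promoter and protein comparison was not run. Values below are summed log2 ratios and counts of members called, for 6 comparisons of libraries and 3 of effector with naive cells (transferred on day 3, endogenous on days 3 and 20). Of 87 summed values, 40 moved by no more than the counting interval, 40 moved further and 7 changed sign. The intervals are narrow, since they cover counting error only.

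With TMM factors, CFSE-positive over CD25high CD127low cells gave 0.037 on day 3 (3 higher, 1 lower) and -0.012 on day 20, and over CD25-negative conventional cells 0.139 (2 higher) and -0.036. Day 20 over day 3 gave -0.182 in CFSE-positive (2 higher, 1 lower) and -0.133 in CD25high CD127low cells. Effector over naive gave 0.063 (3 higher, 1 lower) in transferred, and -0.0085 (1 higher) and 0.129 (4 higher) in endogenous cells. With median-of-ratios factors, in the same order, the values were 0.027 (3 higher, 1 lower), 0.011, 0.147 (2 higher), -0.0058, -0.157 (2 higher, 1 lower), -0.141, -0.049 (1 higher, 2 lower), 0.078 (3 higher) and 0.124 (4 higher). On the other base they were 0.171 (4 higher, 1 lower), 0.28 on day 3 (13 higher) and 0.044 on day 20 over CD25-negative conventional cells, -0.186 (2 higher, 1 lower) and -0.077 between days, and 0.085 (3 higher, 1 lower), 0.208 (8 higher) and 0.28 (11 higher) for effector over naive. More members reach 50 CPM on that base.

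The mean of the cells' own shares gave 0.397 for CFSE-positive over CD25high CD127low on day 3, and 0.483 and 0.466 for endogenous effector over naive. Without doublet-like cells the values were 0.388 on day 3, 0.092 on day 20, -0.040 between days in CD25high CD127low cells and 0.463 for endogenous effector over naive on day 20. Thinned cells gave 0.391 over CD25high CD127low on day 3, 0.484 and 0.086 over CD25-negative conventional cells, and 0.488 and 0.460 for endogenous effector over naive. The matching classes gave 0.252 (5 higher), -0.039 on day 20 and -0.042 between days. Without the 4 members NDUFS5, ATP5I, NDUFB1 and COX7A1, left out after their values had been seen, the values were 0.329 (5 higher) and -0.062 between days in CD25high CD127low cells. The direction of both shifts was fixed by picking members that are low in CD25high CD127low cells of day 3. With the rows that the reference table names added, also chosen after seeing the data, 0.472 and 0.129 over CD25-negative conventional cells, and -0.297 and 0.0039 between days. At 2-fold, 2 members were higher over CD25high CD127low and 2 higher and 0 lower over CD25-negative conventional cells on day 3, 0 in either direction between days, and 1, 3 and 4 higher for effector over naive. With a pseudocount of 30 CPM, 5 were higher over CD25high CD127low, 1 lower over CD25-negative conventional cells, and 10 and 15 higher for effector over naive on day 3. With no minimum, or with 20 CPM, 1 member (NDUFS4) was lower over CD25high CD127low on day 3, and 2 were higher between days in CFSE-positive cells. The cause of these changes was not tested.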
